A study of Saccharomyces cerevisiae with 164 samples.

Results

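The small-subunit processome is the set of proteins that assemble on the newborn ribosomal RNA in the nucleolus and start to make the small ribosomal subunit. Its genes were followed here in budding yeast whose histone H3 carries a substitution on 1 or on both of its copies. The members were chosen by name, not by their values, though with earlier results of these data known. They are 39 genes coding for UTP proteins and other factors of the 18S rRNA pathway, of 6692 gene features in the full-length RNA libraries. In the 3′-end libraries 38 of the 39 were among 5013 features, NOP58 being the member without a row there.

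As background, RNA polymerase I makes a long precursor RNA, and the processome folds its 5′ part around the U3 small nucleolar RNA, which base-pairs with it. The UtpA complex binds the precursor earliest, followed by the UtpB complex and the U3 particle. The Mpp10 complex, GTPases, helicases and methyltransferases join later and drive cleavage and rearrangement. Yeast adjusts the genes for these factors together with nutrient supply and growth rate. Many of their promoters hold a PAC element, which the repressors Dot6 and Tod6 bind, and an RRPE element, which Stb3 binds. Substituting arginine for a lysine keeps the positive charge and blocks acetylation, while glutamine removes the charge and is often used in place of an acetylated lysine.

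All strains were MATa haploids without the chromosomal H3-H4 gene pairs, kept alive by a TRP1 and a LEU2 centromeric plasmid. In every strain, the pseudo-wild-type included, the TRP1 plasmid coded for an H3 with L127A and L131V, named H3X, and the LEU2 plasmid for an H3 with L110I, A111W and L131I, named H3Y. These changes at the H3-H3 interface favour nucleosomes that hold 1 H3X and 1 H3Y. A further substitution on H3X alone or on H3Y alone gave asymmetric strains, the same substitution on both gave the symmetric strain, and the pseudo-wild-type had none. The H4 gene of the LEU2 plasmid is labelled HHF2 in the pseudo-wild-type and HHF1 in the mutant strains sequenced at the 3′ end. Cells were harvested at mid-log phase in YEPD, a rich glucose medium, and polyadenylated RNA was sequenced. In 3′-end libraries, which count each transcript near its end, R2K, K36Q and K37Q formed batch 10 and K14R, K18R and K56R batch 11. Each 3′-end strain had 3 libraries and each of these batches had 6 pseudo-wild-type libraries of its own. The full-length libraries, in batches 1 to 9, held the same substitutions and also K9R, K9Q, S10A, K14Q, K18Q, K27R and K27Q. On 1 copy only they further held K4A, K4Q, K4R, K36R, T45A, K56Q, K79A and the deletion labelled delta4-20. Mostly there were 1 or 2 libraries for a strain. The pseudo-wild-type was included 5 times, in batches 2, 3, 4 and 8 alone. Strains sequenced only in batches 1, 5, 6 and 7, R2K and K37Q among them, were linked to it in the fit through other mutant strains. The labels do not say whether replicates were separate cultures, so p-values measure the spread between these libraries, which may be technical.

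Total counts ran from 750551 to 5156160 in the 66 3′-end libraries and from 542727 to 21573351 in the 98 full-length libraries. The members took 0.255 to 0.789% of the 3′-end counts and 0.264 to 1.12% of the full-length counts. HHT1, a deleted H3 gene, was at 0 in 65 of the 66 3′-end libraries, and HHF1, the H4 gene beside it, in all 66, those of strains labelled with HHF1 on the plasmid included. All 5 MATa markers were detected in each 3′-end library, while the α-factor genes MF(ALPHA)1 and MF(ALPHA)2 had medians of 1.42 and 0.61 CPM. STE3, the receptor gene of α cells, was detected in all 66 as well, at 21.4 to 63.4 CPM with a median of 43.4 CPM, above the median of the MATa marker MFA1 (29.5 CPM). CPM is the count of a gene scaled to a common library total. Pseudo-wild-type replicate 16 of batch 11 stood apart, with the members at a median log2 ratio of 0.47 over the mean of its group, where the other 5 lay between -0.19 and 0.09. Full-length pseudo-wild-type replicates 1, 2 and 3 were nearly identical and were averaged as 1 sample in means. CPM is a share of a library, so fewer transcripts in every cell and fewer cells that make them cannot be told apart.

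The promoters of 5 members are shown because most members share the same short motifs there: SAS10, BFR2 and UTP14 are members that rose in K14R at the 3′ end, and NOP1 and EMG1 the members that fell. Within 250 bases before and 50 bases after the coding start, the PAC core GATGAG was present on either strand in 35 of 39 members (89.7%) and in 1224 of 6007 yeast promoters of that length (20.4%). The RRPE core AAAAATTT was present in 31 members (79.5%) and in 850 promoters (14.2%). Both cores stood together in 29 members (74.4%), against 338 promoters (5.63%). PAC was not matched in the windows of UTP15, UTP22, UTP30 and EMG1. RRPE was not matched in those of UTP7, UTP13, UTP22, MPP10, RRP9, ENP2, ECM16 and EMG1. The longer PAC form GCGATGAG, which contains the core, was present in 21 members (53.8%; 3.93% of promoters), and the RRPE core preceded by the letters TG in 19 members (48.7%; 3.91%). A match is a string of letters, not a measured binding site. The sequences are from the reference genome, build R64 (sacCer3), 5′ to 3′ on the gene's strand, with PAC and RRPE matches on either strand in capitals.
SAS10 promoter, chrIV:182969-183268 (minus strand): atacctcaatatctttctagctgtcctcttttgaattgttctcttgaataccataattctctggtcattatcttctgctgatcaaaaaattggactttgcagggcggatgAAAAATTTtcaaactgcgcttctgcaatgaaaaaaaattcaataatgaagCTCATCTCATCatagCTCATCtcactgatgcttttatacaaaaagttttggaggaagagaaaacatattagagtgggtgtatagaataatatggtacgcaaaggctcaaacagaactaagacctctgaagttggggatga
BFR2 promoter, chrIV:1059377-1059676 (plus strand): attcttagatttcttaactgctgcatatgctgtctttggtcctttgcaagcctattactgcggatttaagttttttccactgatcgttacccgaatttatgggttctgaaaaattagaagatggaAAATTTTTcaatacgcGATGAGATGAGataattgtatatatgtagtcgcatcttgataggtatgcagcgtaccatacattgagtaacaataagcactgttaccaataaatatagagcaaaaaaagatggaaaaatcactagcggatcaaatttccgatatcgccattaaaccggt
UTP14 promoter, chrXIII:82840-83139 (plus strand): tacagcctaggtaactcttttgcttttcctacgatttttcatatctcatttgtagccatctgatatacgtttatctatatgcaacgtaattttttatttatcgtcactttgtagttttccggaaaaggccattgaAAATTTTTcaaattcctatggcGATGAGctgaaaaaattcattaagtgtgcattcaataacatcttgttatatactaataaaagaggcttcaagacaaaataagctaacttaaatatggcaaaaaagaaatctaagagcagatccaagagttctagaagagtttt
NOP1 promoter, chrIV:427114-427413 (plus strand): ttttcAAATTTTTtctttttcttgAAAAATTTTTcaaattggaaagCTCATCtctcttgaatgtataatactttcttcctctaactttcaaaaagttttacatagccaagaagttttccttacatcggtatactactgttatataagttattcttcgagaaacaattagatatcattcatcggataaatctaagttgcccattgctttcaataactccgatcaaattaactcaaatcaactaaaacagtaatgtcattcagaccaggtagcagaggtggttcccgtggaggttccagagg
EMG1 promoter, chrXII:523382-523681 (plus strand): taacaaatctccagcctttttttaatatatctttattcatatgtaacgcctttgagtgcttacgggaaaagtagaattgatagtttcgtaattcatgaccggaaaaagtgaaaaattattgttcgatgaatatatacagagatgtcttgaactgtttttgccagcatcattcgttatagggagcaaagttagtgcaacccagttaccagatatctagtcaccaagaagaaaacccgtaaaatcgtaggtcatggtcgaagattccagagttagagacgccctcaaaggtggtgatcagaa
In SAS10 the PAC core was found 3 times, including an overlapping pair, the nearest 75 bases before the start, and RRPE once, 140 bases before it. BFR2 had 2 overlapping PAC cores, the nearest at 104 bases, and an RRPE at 125. UTP14 had 1 of each, at 93 and 115 bases. In NOP1 the PAC core lay at 204 bases and the nearest of 3 RRPE matches, an overlapping pair on opposite strands among them, at 224. EMG1 held no match to either.

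The coding sequences are shown for their adenine content, which the fold changes followed across the members. Adenine made up a median of 35.1% of the members' coding bases against 32.8% over 5012 yeast genes. The share ran from 24.4% in NOP1 to 40.1% in UTP11, and 8 of the 39 members were above the 90th percentile of all genes, 37.0%. The members' densest 20 coding bases held at most 16 A. For the members that moved most at the 3′ end, UTP14 and SAS10, and for NOP1 and EMG1, these 20 bases are in capitals within 60 coding bases.
UTP14 coding window, chrXIII:85178-85237 (plus strand): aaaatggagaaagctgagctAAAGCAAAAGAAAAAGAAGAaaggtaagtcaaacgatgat
SAS10 coding window, chrIV:181948-182007 (minus strand): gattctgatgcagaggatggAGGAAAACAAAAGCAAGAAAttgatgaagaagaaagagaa
NOP1 coding window, chrIV:428018-428077 (plus strand): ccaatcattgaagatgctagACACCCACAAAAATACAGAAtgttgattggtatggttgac
EMG1 coding window, chrXII:523842-523901 (plus strand): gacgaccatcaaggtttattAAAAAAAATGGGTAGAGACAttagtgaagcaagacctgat
The capitals hold 15 A in UTP14, 14 in SAS10, and 12 in both NOP1 and EMG1. The members' coding sequences were also long, with a median of 1728 bases against 1269.

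Levels between genes can be compared per length in the full-length libraries, in CPM per kilobase of gene (FPKM), over 3 pseudo-wild-type samples. The members' median was 96.0 FPKM, against 46.3 for all genes tested. Highest were 3 genes of the U3 particle. NOP1, the methyltransferase of box C/D particles, was at 574 ± 5.03 FPKM (SD, n = 3), NOP56, a scaffold protein of the same particles, at 352 ± 116 FPKM, and NOP58, its partner, at 294.5 ± 63.0 FPKM. NOP56 and NOP58 did not differ beyond that spread. RRP9, the other gene of that particle, was at 88.1 ± 25.6 FPKM, below the members' median. LCP5 and SAS10, which share a Sas10 domain, followed at 143 ± 40.6 and 134 ± 21.2 FPKM. Most others lay close together, within their spread of their neighbours, from BMS1 at 122 FPKM to SOF1 at 65.2 FPKM. The lowest were UTP20, a very long repeat protein, at 41.3 ± 11.1 FPKM and UTP30, related to a ribosomal protein, at 36.9 ± 14.3 FPKM. In the 3′-end libraries some members differed between the batches' pseudo-wild-types, which were normalised separately: NAN1, a UtpA subunit, had means of 189.9 and 48.5 CPM in batches 10 and 11, and SAS10 105 and 37.2 CPM.

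Most members were higher in the 3′-end libraries of symmetric K14R, in which both H3 tails lack a lysine that is otherwise acetylated. Of 38 tested, 27 rose and 2 fell by edgeR's quasi-likelihood test at an adjusted p under 0.05, with a median log2 fold change of 0.57. Over all 4961 genes tested, 20.4% rose and 15.8% fell (36.2% either way), and the median was 0.01. The 3 K14R libraries lay wholly above the 6 pseudo-wild-type libraries in 15 members and wholly below in 3, against 15.3% and 15.7% of all genes. Symmetric replicates 3 and 5 differed little over all genes (chi-square per degree of freedom 2.42), and no refit with them summed was made. Without pseudo-wild-type replicate 16, 30 members were called, and without symmetric replicate 5, 21. The shares of all genes called in these refits are not given here.

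UTP7 (YER082C, chrV:324272-325936, minus strand), a factor that ties early and late parts of the particle together, had 158, 178 and 183 CPM in the symmetric K14R libraries, against a lowest, median and highest value of 84.2, 92.5 and 128 CPM in the pseudo-wild-type. The groups did not overlap, and the fitted log2 fold change was 0.83 ± 0.13 (SE; edgeR adjusted p = 0.000159). BFR2 (YDR299W, chrIV:1059627-1061231, plus strand), a factor with which ENP2 and LCP5 form a module, stood at 129, 118 and 148 CPM against 36.3, 54.7 and 95.0 CPM. All 3 libraries were above the highest pseudo-wild-type library, replicate 16 (1.18 ± 0.21, edgeR adjusted p = 0.000269). SAS10 (YDL153C, chrIV:181186-183018, minus strand) had 116, 111 and 143 CPM against 18.6, 26.1 and 77.0 CPM, again without overlap (1.71 ± 0.32, edgeR adjusted p = 0.000402). ENP2 (YGR145W, chrVII:781767-783890, plus strand) had 163, 139 and 199 CPM against 38.2, 47.5 and 104 CPM (1.5 ± 0.28, edgeR adjusted p = 0.000418). The steepest rise was that of UTP14 (YML093W, chrXIII:83090-85789, plus strand), the activator of the helicase Ecm16, with 225, 198 and 278 CPM against 36.5, 44.3 and 151 CPM (1.75 ± 0.38, edgeR adjusted p = 0.00119). In each of these 5 members the groups stood apart, and the pseudo-wild-type spread was wide because of its highest libraries.

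Coordinates are those of the coding sequence in R64 (sacCer3). Members rose in every role. In UtpA, 4 of 7 rose, from UTP8 (log2 fold change 0.89) to UTP4 (0.70), while UTP5, UTP10 and UTP15 had 0.08, -0.18 and -0.07 and were not called. In UtpB, 4 of 5 rose: DIP2 (0.81), UTP13 (0.75), UTP6 (0.59) and UTP21 (0.45), with UTP18, which brings in the exosome's helicase, at -0.26 and not called. All 5 of the Mpp10 complex and the Sas10 family rose, LCP5 by 0.96, MPP10 itself by 0.62 and its partners IMP3 and IMP4 by 0.49 and 0.51. In the U3 particle RRP9, its U3-specific protein, rose by 0.89 and NOP56 by 0.41. Of the enzymes, the GTPase gene BMS1 rose by 1.13 and the helicase gene ECM16 by 0.80, while RCL1, whose protein travels with Bms1, had 0.05. Among the other factors 9 of 13 rose, from UTP20 (0.32) to ENP2, with UTP11 at 0.51, SOF1 at 0.52, UTP22 at 0.55, UTP25 at 1.27 and NOP14, the partner of Noc4, at 1.38. UTP30, UTP23, ENP1 and NOC4 were not called (0.40, 0.18, 0.12 and -0.13).

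Only NOP1 and EMG1 fell of the 38. EMG1 (YLR186W, chrXII:523632-524390, plus strand), which codes for a methyltransferase that acts on 18S rRNA, had 118, 117 and 96.9 CPM in symmetric K14R against 129, 133.5 and 142 CPM (lowest, median, highest) in the pseudo-wild-type. All 3 were below the pseudo-wild-type (-0.28 ± 0.09, edgeR adjusted p = 0.0138). NOP1 (YDL014W, chrIV:427364-428347, plus strand) had 319, 266 and 297 CPM against 331, 371 and 390 CPM, also without overlap (-0.32 ± 0.11, edgeR adjusted p = 0.0233).

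**Figure D1:**
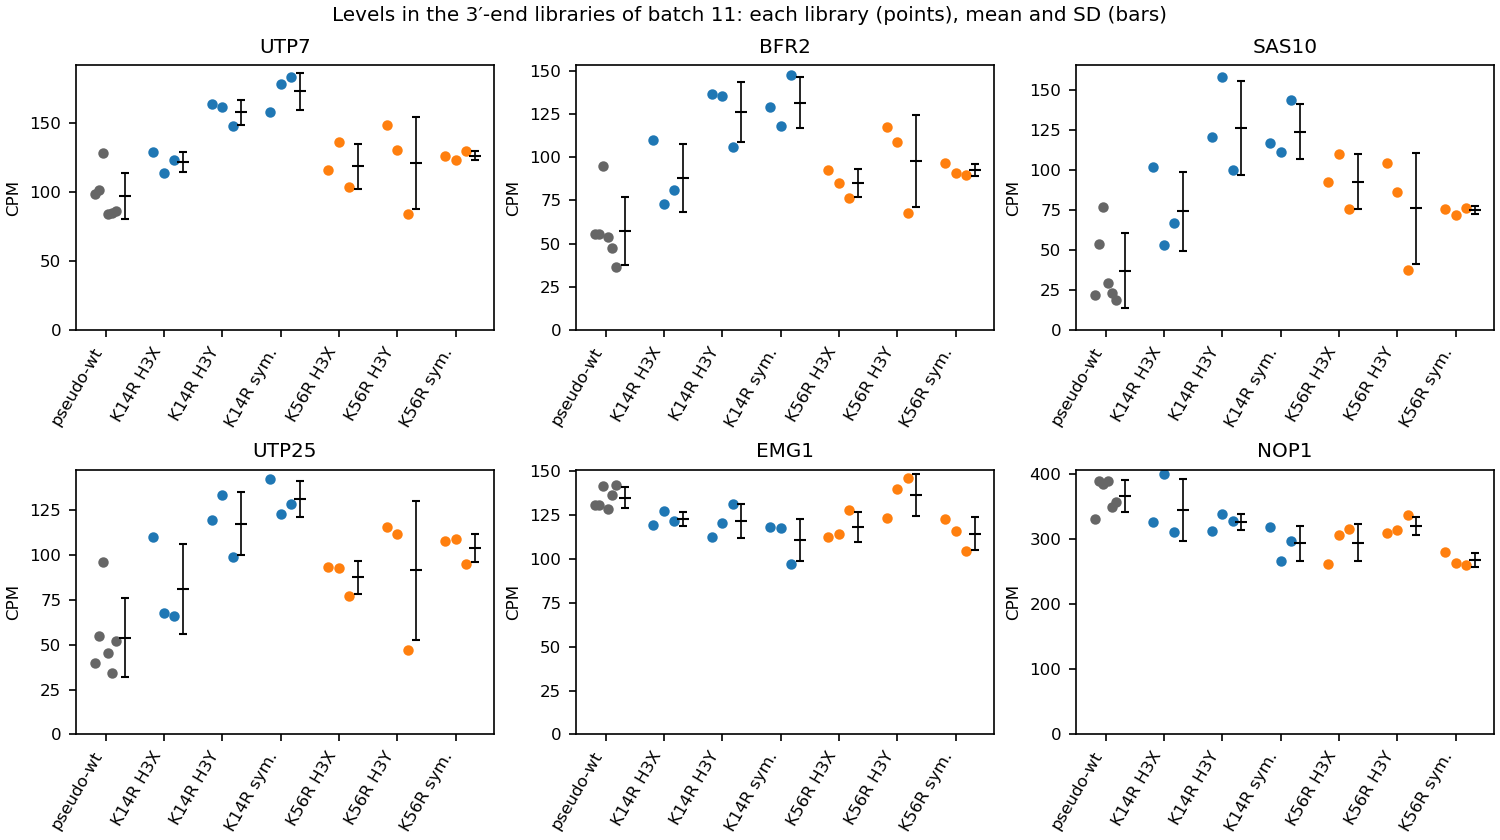
CPM of UTP7, BFR2, SAS10, UTP25, EMG1 and NOP1 in each 3′-end library of the pseudo-wild-type, K14R and K56R strains of batch 11 (points), with mean and SD (bars). The 3 symmetric K14R libraries are above all 6 pseudo-wild-type libraries in UTP7, BFR2, SAS10 and UTP25 and below them in EMG1 and NOP1.

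With K14R on 1 copy, the mean of the H3X and H3Y strains gave 26 members higher and 0 lower and a members' median of 0.45 on the log2 scale (all genes: 17.4% higher, 11.6% lower, 29.0% either way). These are the same pseudo-wild-type libraries as above, so the counts of the symmetric and asymmetric strains are not independent. BMS1 had 125, 112 and 109 CPM with the substitution on H3X and 256, 175 and 163 CPM with it on H3Y, against 51.1 to 87.7 CPM. All 6 mutant libraries were above the pseudo-wild-type (1.2 ± 0.22, edgeR adjusted p = 0.000839). NAN1 had a log2 fold change of 0.78 (edgeR adjusted p = 0.000934), ENP2 1.24 (0.00163) and ECM16 0.71 (0.00170). No member was called between the symmetric strain and the asymmetric mean, where 2 of 4961 genes were (0.0403% of all genes); 2 members had an unadjusted p under 0.05 and DESeq2 called 0.

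Between the strains with K14R on H3X and on H3Y, no member was called by edgeR or DESeq2, while edgeR called 0.464% of all genes. At an unadjusted p under 0.05 there were 7 members, a count given without the share of all genes. The median was -0.27, that is lower with the substitution on H3X, and the H3X libraries lay wholly below the H3Y libraries in 15 of 38 members, against 10.6% of all genes. UTP14 had 210, 105 and 116 CPM on H3X and 227, 304 and 171 CPM on H3Y, which overlap (log2 difference -0.70). SAS10 had 102, 53.4 and 67.0 CPM against 120, 158 and 99.6 CPM, which overlap by 1 library (-0.76). With the 9 K14R libraries fitted alone, an alternative chosen after seeing the data, 12 members were called, with 4.48% of all genes called in that fit.

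K37Q moved the members the other way. In batch 10, the mean of the K37Q strains changed on 1 copy had 25 of 38 members lower and 0 higher. The members' median log2 fold change was -0.45. Over all 4984 genes 19.9% were higher and 21.6% lower (41.5% either way), and the median was -0.01. The 6 mutant libraries were wholly below the 6 pseudo-wild-type libraries in 8 members, against 2.93% of all genes.

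UTP25 (YIL091C, chrIX:191030-193195, minus strand), which codes for a helicase-like protein, had 58.6, 79.9 and 58.4 CPM with K37Q on H3X and 64.3, 46.9 and 57.0 CPM with it on H3Y. The pseudo-wild-type ran from 86.5 to 190 CPM with a median of 153, above all 6 (-1.30 ± 0.19, edgeR adjusted p = 2.44e-05). UTP8, a UtpA subunit, had a lowest, median and highest value of 50.1, 86.4 and 116 CPM over the 6 mutant libraries against 114, 172 and 186 CPM, an overlap of 1 mutant library (-0.88 ± 0.15, edgeR adjusted p = 7.46e-05). UTP14 had 53.3, 122 and 42.7 CPM on H3X and 63.6, 47.2 and 46.4 CPM on H3Y, against 98.9, 219 and 279 CPM (lowest, median, highest). The H3X replicate 4 overlapped the lowest pseudo-wild-type library, and the fold change was the steepest fall of any member (-1.70 ± 0.29, edgeR adjusted p = 7.84e-05). BFR2 ranged from 27.7 to 71.8 CPM, below the pseudo-wild-type's 81.6 to 149 CPM (-1.12 ± 0.20, edgeR adjusted p = 0.000148).

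By role the falls with K37Q on 1 copy took in 4 of 7 UtpA, 4 of 5 UtpB, 2 of 3 U3 particle, all 5 Mpp10 and Sas10, 2 of 5 enzyme and 8 of 13 other genes. SAS10 fell by 1.45, ENP2 by 1.16 and NOP14 by 1.13 on the log2 scale. BMS1, with -0.49, was not called (edgeR adjusted p = 0.117). NOP1 had 255, 308 and 349 CPM (lowest, median, highest) against 222, 291 and 342 CPM, and EMG1 128, 145 and 166 CPM against 116, 137 and 181 CPM. Both groups overlapped throughout in these 2 genes.

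The symmetric K37Q strain had a median of -0.39 but no call by edgeR or DESeq2. At an unadjusted p under 0.05 there were 21 members, a count given without the share of all genes at that threshold. Over all genes 0.0602% were called higher and 0.0401% lower (0.1% either way). Its libraries were unequal. UTP14 had 121, 36.8 and 138 CPM in replicates 3, 4 and 5, and UTP25 98.6, 41.1 and 107 CPM. Replicate 4 was far below every pseudo-wild-type library, and the other 2 lay inside their range (UTP14 -1.04 ± 0.35, edgeR adjusted p = 0.207). Between the symmetric strain and the asymmetric mean of K37Q no member was called, with 2 at an unadjusted p under 0.05.

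The K14R and K37Q comparisons used different pseudo-wild-type libraries, so their member lists can be set side by side. The 24 members that rose in symmetric K14R and fell with K37Q on 1 copy were 88.9% of the 27 that rose and 96% of the 25 that fell. UTP11, UTP20 and BMS1 were called in K14R alone and UTP30 in K37Q alone. Across the 38 members the log2 fold changes had a Pearson r of -0.93, which describes genes that share their libraries, not independent points. The same overlap and r over all genes are not given here. Opposite shifts were not limited to members. Other genes with at least 38% A had medians of 0.51 in symmetric K14R and -0.29 with K37Q on 1 copy.

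**Figure D2:**
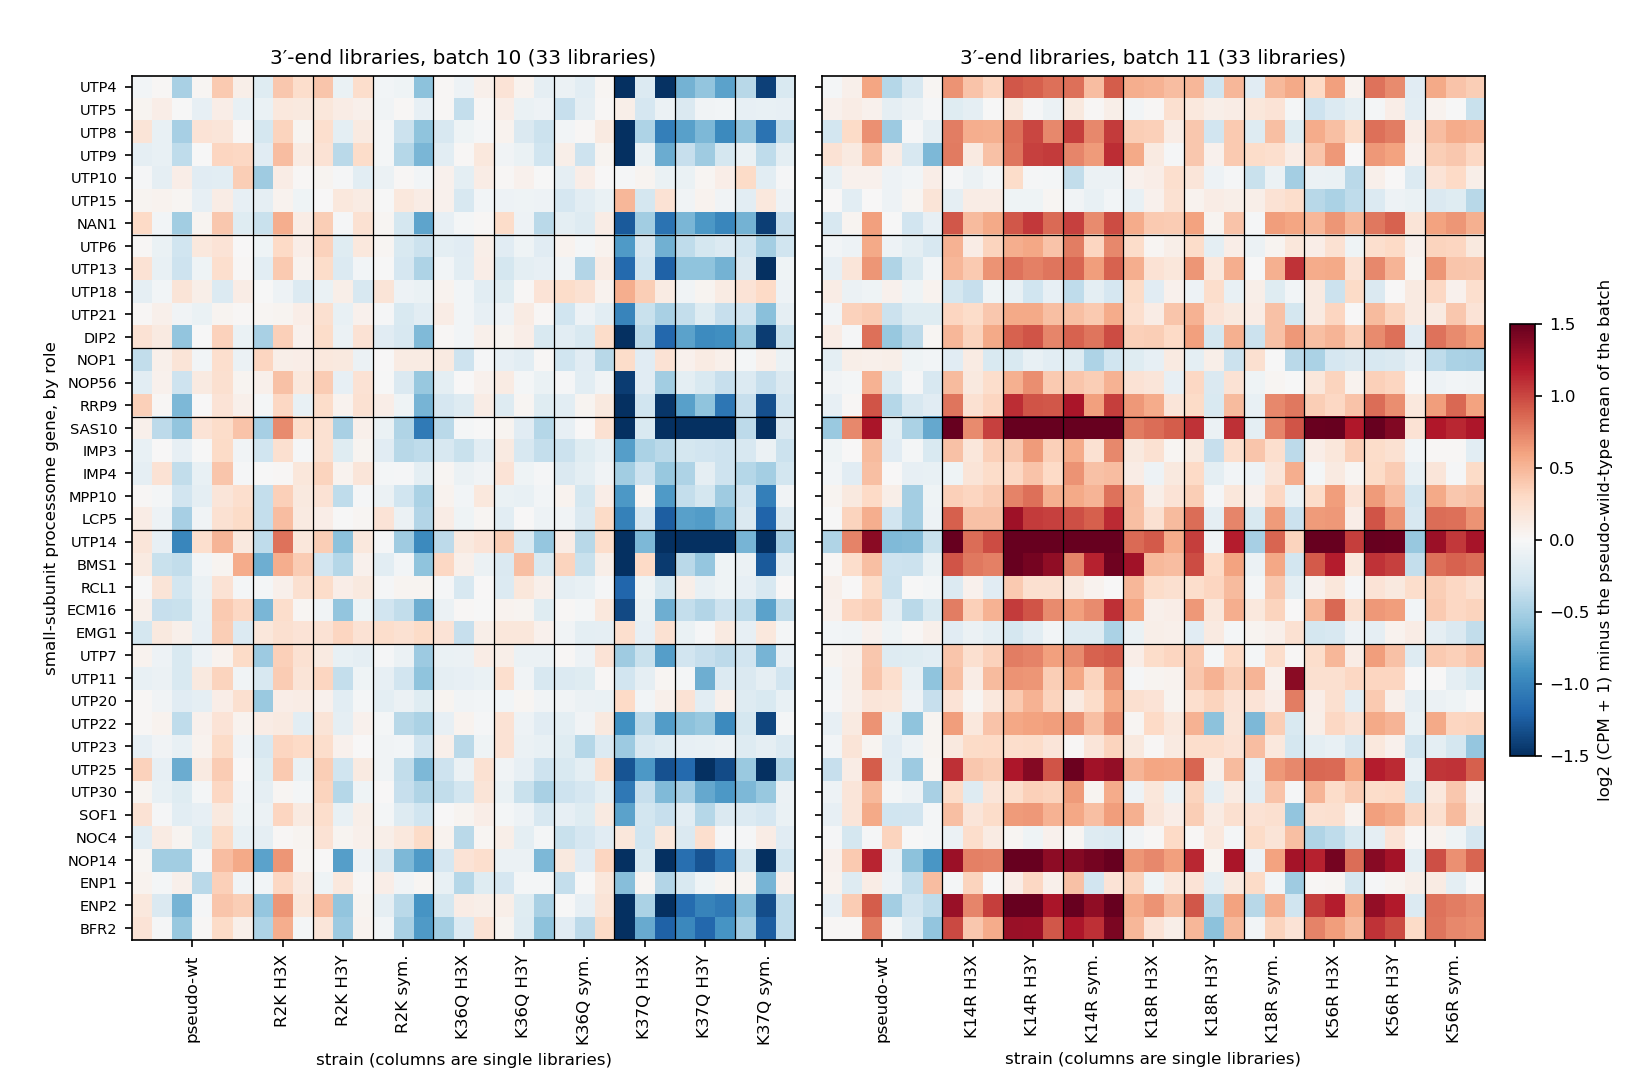
Each 3′-end library (columns, grouped by strain) for each of 38 processome genes (rows, by role), as log2 (CPM + 1) minus the mean of the batch's pseudo-wild-type. K14R columns are red in most rows and K37Q columns blue, while NOP1, EMG1, UTP15 and UTP18 depart from the rows around them.

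K56R, on a lysine of the H3 core that is acetylated on new histones, gave a smaller change. In the symmetric strain 10 members were higher and 4 lower, with a median log2 fold change of 0.31, against 13.4% higher and 10.5% lower of all genes (23.9% either way) and a median over all genes of 0.05. The 3 libraries were wholly above the pseudo-wild-type in 3 members and wholly below in 3, against 12.1% and 13.3% of all genes. Members thus fell, or stood wholly apart, no more often than genes at large. This count rested on few libraries: without pseudo-wild-type replicate 16 it was 23, and without symmetric replicate 3, 4 or 5 it was 5, 3 or 2. The shares of all genes called in these refits are not given here. Symmetric replicates 3 and 4 differed by little more than counting noise (chi-square per degree of freedom 1.59). Summed as 1 sample, they left 4 members called, with 15.0% of all genes called in that fit.

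UTP25 had 108, 109 and 95.2 CPM in symmetric K56R, against 34.5, 48.7 and 96.1 CPM (lowest, median, highest) in the pseudo-wild-type. Only replicate 16 of the pseudo-wild-type reached into that range (0.94 ± 0.25, edgeR adjusted p = 0.00845). NAN1 had 72.7, 75.5 and 69.2 CPM against 38.7, 45.4 and 72.8 CPM, with the same library overlapping (0.57 ± 0.17, edgeR adjusted p = 0.0184). LCP5 (0.74, edgeR adjusted p = 0.0202) and BMS1 (0.83, edgeR adjusted p = 0.0217) rose as well. NOP1 fell most clearly, with 280, 263 and 260 CPM, all below the pseudo-wild-type's 331 to 390 CPM (-0.45 ± 0.11, edgeR adjusted p = 0.00447). UTP15, a UtpA subunit, had 180, 184 and 156 CPM against 187, 210 and 239 CPM, again without overlap (-0.28 ± 0.08, edgeR adjusted p = 0.0184). UTP23, which takes part in releasing the snR30 RNA, and EMG1 were the other members that fell (-0.33 and -0.24, edgeR adjusted p = 0.0386 and 0.0488). By role, 3 of 5 genes of the Mpp10 complex and Sas10 family rose, 3 of 13 other factors, and 1 each of UtpA, UtpB, the U3 particle and the enzymes.

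With K56R on 1 copy 10 members were higher and 2 lower (median 0.26), against 12.7% and 10.2% of all genes (22.9% either way). SAS10 had 92.4, 110 and 75.5 CPM on H3X and 104, 86.1 and 37.7 CPM on H3Y (1.16 ± 0.28, edgeR adjusted p = 0.00472). The H3Y replicate 5 sat among the pseudo-wild-type libraries there, and in UTP14, at 39.2 CPM, and UTP25, at 47.0 CPM. Of the 12 called, the count became 20 without that library, 25 without pseudo-wild-type replicate 16, and 4 without H3Y replicate 3. These counts too are given without the share of all genes. UTP15 and NOP1 were the 2 that fell (-0.28 and -0.25, edgeR adjusted p = 0.00432 and 0.0374). Of the 10 members that rose in symmetric K56R, 9 (90%) were among the 25 that fell with K37Q on 1 copy, 36% of those. The same overlap over all genes is not given here. No member was called between symmetric and asymmetric K56R or between H3X and H3Y, with 3 at an unadjusted p under 0.05 in each; 2.18% and 2.88% of all genes were called there.

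The other 3′-end mutants gave no call by edgeR. The median was -0.24 in symmetric R2K and 0.06 in the asymmetric mean, with 4 and 1 members at an unadjusted p under 0.05. In K36Q both medians were -0.07, with 3 and 0 such members. K18R gave 0.15 in the symmetric strain and 0.21 in the asymmetric mean, with 6 and 11 such members. Of all genes, 1.81% were called in the symmetric strain. The counts at an unadjusted p are given without the share of all genes. DESeq2 called 1 member in symmetric K18R and 0 in the others. Over the 12 comparisons with the pseudo-wild-type, 28 of 38 members were called higher at least once and 29 lower at least once, against 50.0% and 45.7% of the 4961 genes tested in both batches. The comparisons within a batch share their pseudo-wild-type libraries. Those never called were UTP5, UTP10, UTP18, NOC4, ENP1 and RCL1.

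**Figure D3:**
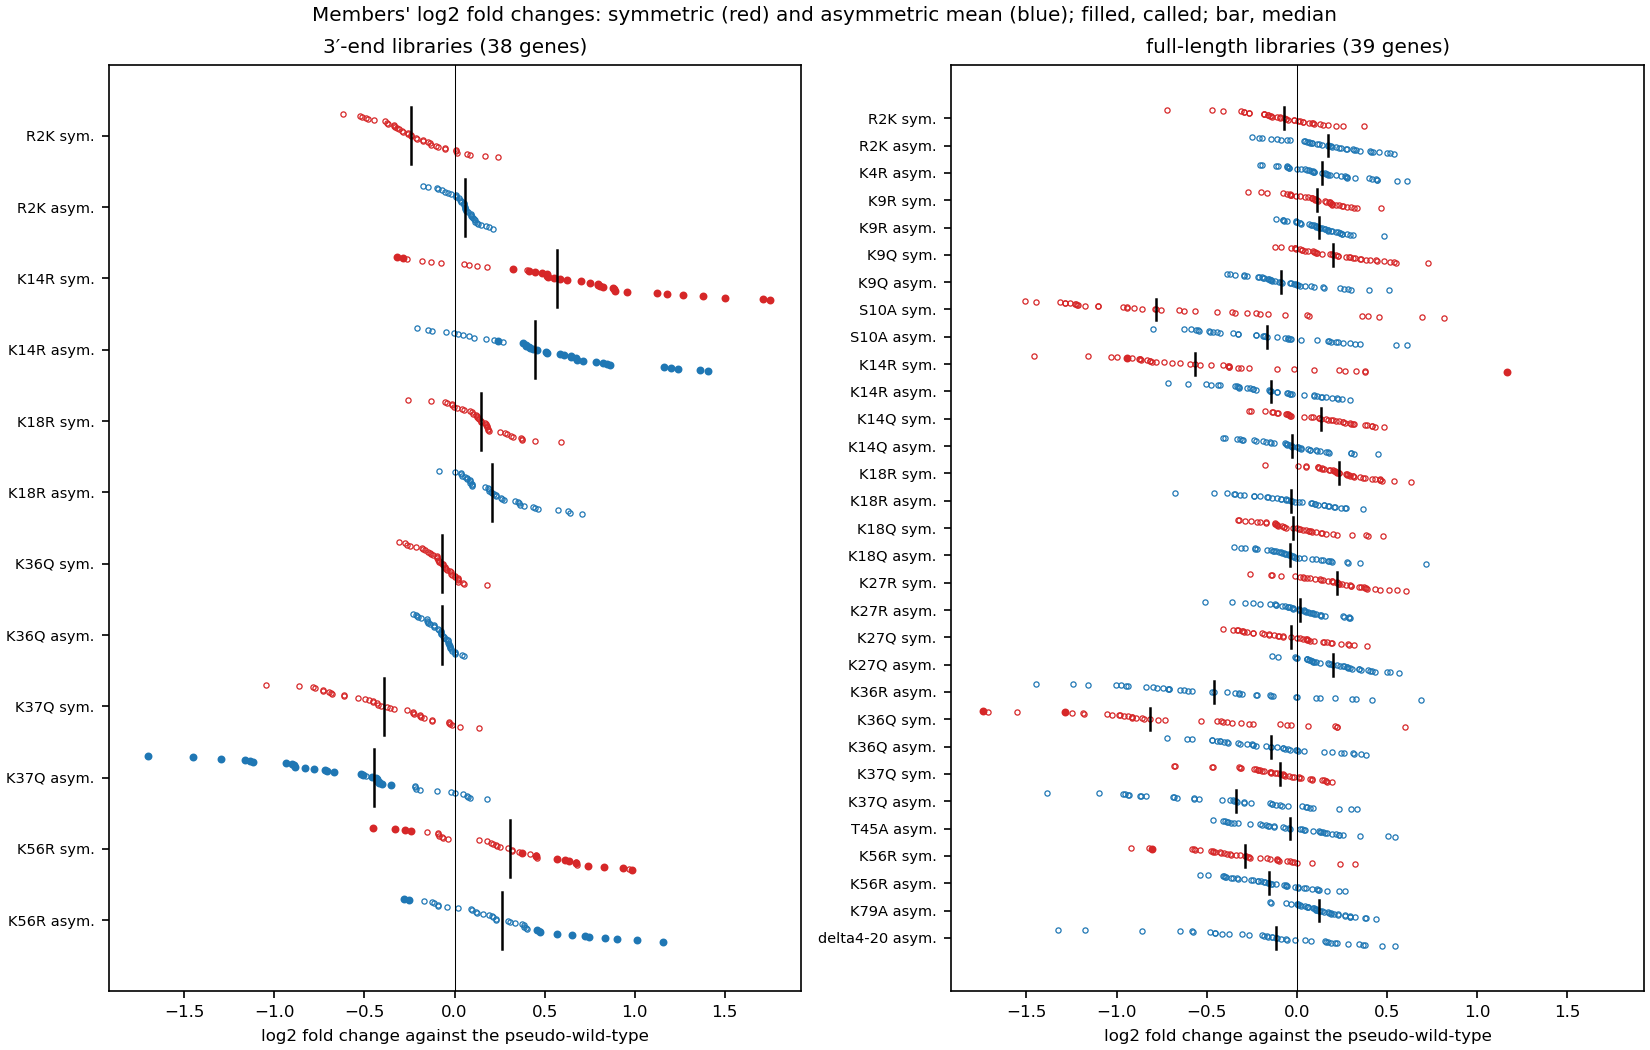
Log2 fold change of each member against the pseudo-wild-type in each comparison, 3′-end on the left and full-length on the right (symmetric strains red, asymmetric means blue, filled where called, bar at the median). At the 3′ end most members lie above 0 in symmetric K14R (median 0.57) and below 0 with K37Q on 1 copy (median -0.45), and in the full-length libraries most lie below 0 in symmetric K14R (median -0.56).

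The members moved together between single libraries too. The median Pearson r between pairs of members over 33 libraries was 0.61 in batch 10 and 0.48 in batch 11, while it was near 0 for all genes. The libraries of a batch share strains and controls, and the value is a description. A few members did not follow: UTP18 had a median r with the others of -0.46 in batch 10 and -0.35 in batch 11, NOP1 -0.18 and -0.21, UTP15 -0.24 and -0.08, NOC4 -0.04 and -0.13, and EMG1 0.02 and -0.33. UTP18 had 38.4, 45.1 and 41.9 CPM in symmetric K14R against 47.0 to 54.2 CPM in the pseudo-wild-type, all below, though it was not called.

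Within the members the fold change went with the share of adenine in the coding sequence. In symmetric K14R the Pearson r across 38 members was 0.70, and over all genes 0.53; with K37Q on 1 copy it was -0.60 and -0.43, and in symmetric K56R 0.52 and 0.33. The 6 members with at least 38% A had a median log2 fold change of 1.28 in symmetric K14R, against 0.51 for 302 other genes of that content. Of these, UTP14, SAS10, NOP14 and BFR2 rose by 1.75, 1.71, 1.38 and 1.18, while UTP11, the richest in A, rose by 0.51 and UTP30, with 0.40, was not called. The 14 members with 34 to 36% A had 0.66 against 0.21 for 981 others, the 8 with 32 to 34% had 0.44 against 0.06 for 1152 others, and the 5 with 30 to 32% had -0.07 against -0.15 for 911 others. NOP1, at 24.4% A, had -0.32 against -0.27 for 522 other genes under 28%. With K37Q on 1 copy the 6 richest had -1.13 against -0.29 for the others. In each of these bins the members' median lay on the same side of 0 as that of other genes with the same A content, and from 32% upward it lay farther out. Among A-rich genes that are not members, over 37% A, 256 of 493 rose and 9 fell in symmetric K14R (median 0.45), while of 1097 genes under 30% A, 24 rose and 397 fell (median -0.24).

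**Figure D4:**
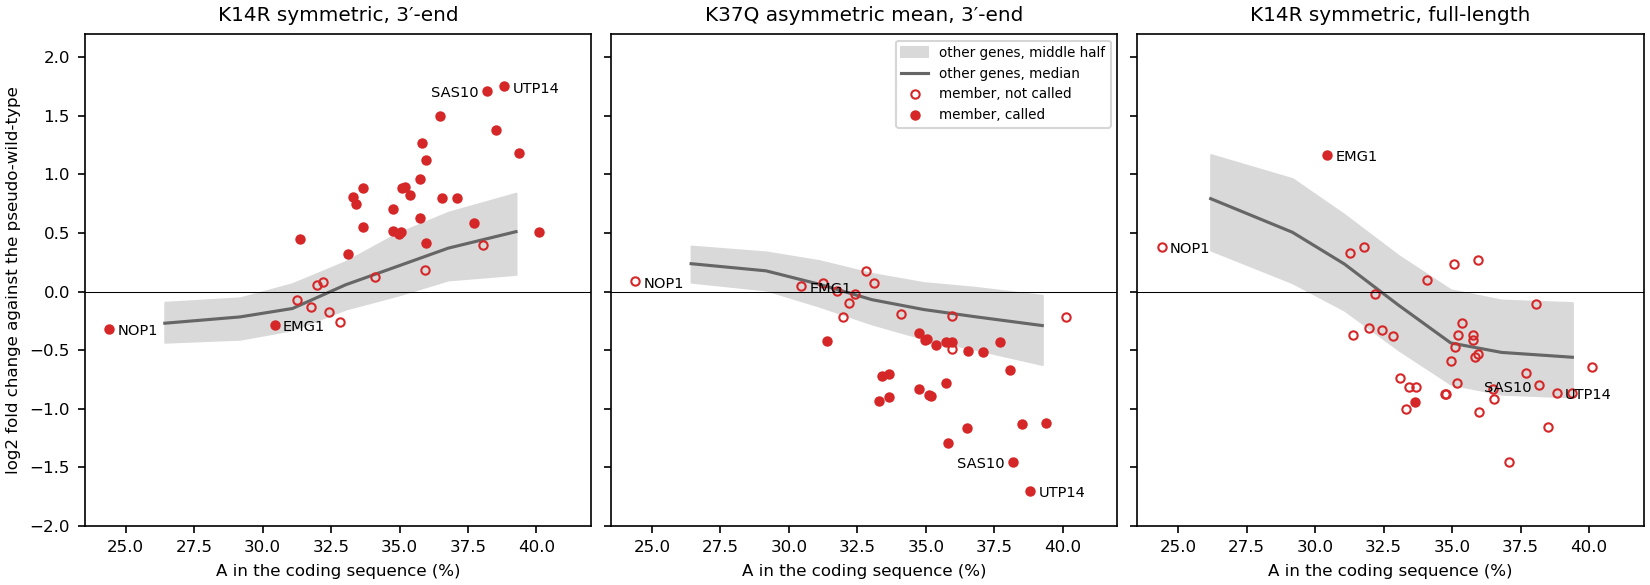
Log2 fold change of each member (circles, filled where called) against the percentage of A in its coding sequence, with the median and the middle 50% of the other genes in bins of A content (line and band). Members rise with A content in symmetric K14R at the 3′ end, fall with it with K37Q on 1 copy, and do not show the 3′-end rise in the full-length K14R libraries.

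The same relation held between libraries. For each library, the slope of log2 CPM on the A share of the coding sequence was taken over genes outside the members and the other lists, and set beside the median log2 ratio of the members to the pseudo-wild-type mean. Over 33 libraries each, Pearson's r was 0.92 in batch 10 and 0.91 in batch 11 (Spearman's rho 0.87 and 0.90), and 0.87 and 0.90 without the 2 libraries with the most extreme slopes. Taken as deviations from the strain means, r was 0.90 and 0.86, so libraries of the same strain followed it as well. The members' median also went with the slope on coding length, with r of 0.80 in batch 10 and 0.79 in batch 11. Spearman's rho was 0.68 and 0.87 there, and r was 0.74 and 0.73 as deviations from the strain means. Which of the slopes the members followed was not tested. The slope on A was 0.27 to 0.40 log2 units per 10 percentage points in the symmetric K14R libraries. In the pseudo-wild-type of batch 11 it was -0.57 to 0.12. With each library's slopes on coding A and on coding length as covariates, 0 members were called in symmetric K14R, with a median of 0.03, and 0 with K37Q on 1 copy, with a median of -0.15. In symmetric K56R 4 members were called, 1 higher and 3 lower, a count given without the share of all genes. Over all genes 46 were then called in symmetric K14R and 4 with K37Q on 1 copy. The slopes differed between strains, so slope and substitution cannot be told apart in that fit.

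**Figure D5:**
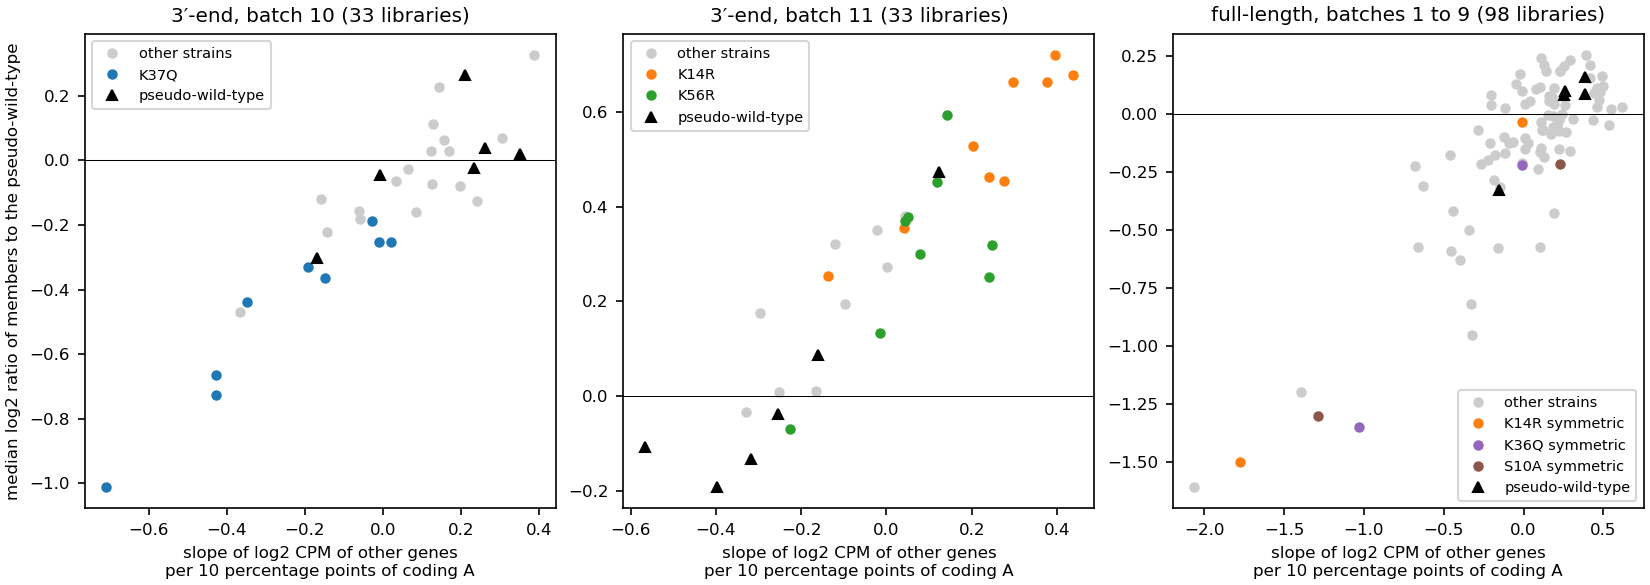
Median log2 ratio of the members to the pseudo-wild-type in each library against that library's slope of log2 CPM on coding A, taken over other genes. Points follow a rising line in both 3′-end batches (r = 0.92 and 0.91), with K37Q libraries at the lower left and K14R libraries at the upper right.

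The full-length libraries did not show the 3′-end rise in symmetric K14R. Of 39 members, 1 was higher and 1 lower, with a median log2 fold change of -0.56, against 14.6% higher and 5.69% lower of 6376 genes (20.2% either way). The 2 libraries differed: the members' median log2 ratio was -0.04 in replicate 1 and -1.5 in replicate 2, whose slope per 10 points of A was -1.78. Replicate 1 was in batch 2 and replicate 2 in batch 7, which held no pseudo-wild-type library. Replicate and batch cannot be told apart there. Without replicate 2 the median was -0.02, and without replicate 1 it was -1.33. Each of these refits kept 1 symmetric library, so calls are not counted. Against the pseudo-wild-type library of its own batch, replicate 1 had 14 members above and 25 below, with a median of -0.20. The pseudo-wild-type libraries of batches 2, 3 and 4 were nearly identical (chi-square per degree of freedom 1.14 to 2.69), so a separate library of each batch and 1 library deposited again cannot be told apart. That limits values against the own batch here and in K36Q below. DESeq2 called 7 members in symmetric K14R, with 28.9% of all genes.

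EMG1 had 110 and 335 CPM in those K14R libraries, against 85.1, 86.7, 88.2, 102 and 87.2 CPM in the 5 pseudo-wild-type libraries. Both lay above, replicate 2 by far (1.16 ± 0.27, edgeR adjusted p = 0.00515). UTP22, which links the particle to the regulator Ifh1, had 314 and 83.9 CPM against 458, 450, 460, 271 and 176 CPM, and overlapped through replicate 1 (-0.94 ± 0.33, edgeR adjusted p = 0.0415). UTP14 had 174 and 66 CPM against 255, 246, 275, 298 and 289 CPM. NOP58, measured in these libraries alone, had 462 and 324 CPM against 543, 571, 547, 444 and 361 CPM, with replicate 1 inside the pseudo-wild-type range.

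In symmetric K36Q 2 members fell, against 2.98% lower and 4.39% higher of all genes (7.37% either way). UTP9, a UtpA subunit, had 95.6 and 27.7 CPM against 230, 228, 237, 143 and 93 CPM (-1.74, edgeR adjusted p = 0.0437), so replicate 1 overlapped the lowest pseudo-wild-type library. UTP6, a UtpB subunit, had 63.9 and 27.3 CPM against 132, 118, 107, 97.4 and 67.8 CPM, both below (-1.28, edgeR adjusted p = 0.0440). Replicate 2, also in batch 7, again had a low members' median log2 ratio, -1.35, where replicate 1 had -0.22. Against the pseudo-wild-type library of its own batch, replicate 1 had a members' median of -0.35. DESeq2 called 9 members here, with 14.9% of all genes, and RLE size factors 4, with 8.19% of all genes. In symmetric K56R NOP1 fell, the same direction as at the 3′ end, with 321 and 363 CPM against 589, 587, 521, 560 and 570 CPM (-0.80, edgeR adjusted p = 0.0466; 0.314% of all genes lower, 1.49% higher and 1.80% either way). The members as a set did not rise there as they did at the 3′ end. Their median log2 ratio to the pseudo-wild-type was -0.57 to -0.16 in the full-length symmetric K56R libraries. In the symmetric K56R libraries of the 3′ end it was 0.30 to 0.38. With 1 of the 3 nearly identical pseudo-wild-type libraries kept, none of these K14R, K36Q and K56R calls of members in the full-length libraries was made.

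Symmetric S10A had a median of -0.78 with no member called by edgeR, which called 0.0314% of all genes. At an unadjusted p under 0.05 there were 25 members. This and the other unadjusted counts below are given without the share of all genes. DESeq2 called 18 members, 1 of them higher, and 14.9% of all genes. The members' median log2 ratio was -0.22 in replicate 1 of symmetric S10A and -1.30 in replicate 2. The other 9 symmetric comparisons gave no call by edgeR or DESeq2, with at most 2 members at an unadjusted p under 0.05, medians from -0.09 (K37Q, 0.0941% of all genes called) to 0.24 (K18R), and 0% of all genes called in the 8 besides K37Q. In the 18 asymmetric full-length comparisons no member was called by either tool, and the medians ran from -0.46 in K36R to 0.20 in K27Q. Of all genes, 0.0157% were called in K9R and in K14R, 0.0941% in S10A, 0.282% in the deletion labelled delta4-20, 0.439% in K56R and 0% in the other 13. K37Q on 1 copy had -0.34 with 9 members at an unadjusted p under 0.05, and its strains differed. The members' median log2 ratio was -1.20 and -0.95 in the libraries with K37Q on H3X and 0.18 and -0.15 in those with it on H3Y. UTP14 had 32.4 and 20.3 CPM on H3X and 320 and 140 CPM on H3Y. The count tables of replicates 1 and 2 carry different strain numbers in each of these strains, with the same plasmids in the labels. In batch 9, which shares no strain with other batches, K56Q against K4A and K4Q gave no call of a member and a median of 0.08 (0.0157% of all genes called). Over the 98 full-length libraries the members' median and the A slope had a Pearson r of 0.86 and a Spearman's rho of 0.67. Pearson's r was 0.79 without the 2 libraries with the most extreme slopes. With the slope on coding length, Pearson's r was 0.41 and Spearman's rho 0.34.

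Genes of neighbouring pathways moved alongside the members. Of 36 other small-subunit assembly factors 22 rose and 1 fell in symmetric K14R at the 3′ end (median 0.48), and 0 rose and 20 fell with K37Q on 1 copy (median -0.32). Of 34 large-subunit assembly factors 23 rose and 0 fell in K14R (median 0.63), and 1 rose and 23 fell in K37Q (median -0.47). The genes for small-subunit ribosomal proteins, which are short and code for the finished subunit, went the other way: of 52, 0 rose and 34 fell in K14R (median -0.44), and 40 rose and 0 fell in K37Q (median 0.51). In symmetric K56R 0 of the 52 rose and 31 fell (median -0.44), while 5 of the other small-subunit factors rose and 1 fell (median 0.18) and 2 of the large-subunit factors rose (median 0.15). Of 7 regulators measured at the 3′ end, FHL1, which codes for an activator of ribosomal protein genes, rose in symmetric K14R (0.83 ± 0.15, edgeR adjusted p = 0.000265) and fell with K37Q on 1 copy (-0.34, edgeR adjusted p = 0.0459). DOT6, for a repressor that binds PAC, fell in symmetric K14R (-0.27, edgeR adjusted p = 0.0124). In full-length symmetric K14R no large-subunit factor was called by edgeR (median -0.39), 19 of 56 small-subunit ribosomal protein genes rose (median 0.88), and FHL1 fell (-1.27, edgeR adjusted p = 0.0386).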

How the data were processed

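Polyadenylated RNA was sequenced as 66 3′-end and 98 full-length libraries. The authors deposited raw counts per gene made with featureCounts 1.4.6-p2, per the file headers, from reads with a mapping quality of at least 30. Per the file headers, 3′-end reads were counted on annotated transcripts in the sense direction, and full-length pairs on sacCer3 genes in the reverse sense, with duplicates left out. Per the submitters' processing notes, TopHat2 2.0.12 and Bowtie2 aligned the reads to sacCer3. Because a 3′-end library samples each transcript near its end and a full-length library along it, levels of the 2 assays were not compared.

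Counts were fitted with edgeR 4.0.16 in R 4.3.3 (TMM, filterByExpr, quasi-likelihood F-test, two-sided, Benjamini-Hochberg over all genes tested, threshold 0.05). Each 3′-end batch was fitted alone (4984 and 4961 genes, 23 residual degrees of freedom, all 33 libraries), and the full-length libraries together with batch as a term (35 residual degrees of freedom over 6376 genes). All 38 or 39 members passed the filter on low counts. Members at an unadjusted p under 0.05 are counted without the share of all genes at that threshold. SDs are over libraries, SEs from the fit, and the precision of a gene at the smallest totals is limited by counting. Alternatives were DESeq2 1.42.0, other size factors, no filter, a replicate block, library slopes and leaving out libraries. Scripts were tested on simulated data.

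The members and lists were chosen with earlier results of these data known. Members named are those with the smallest adjusted p, up to 4 in each direction, plus the extremes of each role. A few more (UTP14 in K14R, UTP18, NOP58, the richest in A) were named after their values were seen. Of 18 pairs of 3′-end strains, same-numbered replicates deviated together (all 3 correlations over 0.1) in K56R on H3X and H3Y (0.18 to 0.50) and in K36Q symmetric and H3X (0.11 to 0.35). The labels name no shared day or culture. Motifs and A content came from the reference sequence, R64 (sacCer3).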

Additional observations from a re-analysis of the deposited data

Results flagged for a closer look

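Each check took 1 member or library measure over the 6 pseudo-wild-type 3′-end libraries of a batch. Of 80 checks, 12 had 1 library far from the rest. Chance alone gives about 1 in 20 for separate checks, but these share their libraries and members that moved together. In batch 10 the pseudo-wild-type replicate 10 was low in UTP22 (74.0 CPM, the nearest other 98.1 CPM). Replicate 12 was high in IMP3 (98.6 CPM, the nearest other 80.6 CPM). In batch 11, replicate 16 of the pseudo-wild-type was the high library in 9 of the 10 cases. It stood at 208 CPM in UTP6 where the nearest other was 136 CPM, at 96.1 against 55.1 CPM in UTP25, and at 160 against 97.0 CPM in DIP2. It had 72.8 against 48.9 CPM in NAN1, 93.6 against 67.1 CPM in IMP3 and 73.2 against 53.3 CPM in IMP4. It had 1158 against 799 CPM in NOP56, 89.1 against 46.4 CPM in RRP9 and 95.0 against 55.8 CPM in BFR2. Replicate 17 was high in NOC4 (129 CPM, the nearest other 101 CPM). The part of replicate 16 in the K14R and K56R counts is the difference made by leaving it out, 30 in place of 29 members in symmetric K14R and 23 in place of 14 in symmetric K56R. The shares of all genes called without replicate 16 are not given here.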

How the results depend on the processing

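Counts of members called in this section are given without the share of all genes called in the same fits, except where the share stands above. No named member's fold change reversed its sign in any alternative. Medians did change sign with library slopes, among them those of K56R symmetric and asymmetric, R2K symmetric and full-length K14R symmetric. With library slopes on coding length and A share as covariates, calls among members went to 0 in K14R symmetric, K14R asymmetric, K37Q asymmetric and K56R asymmetric, 4 in K56R symmetric, 1 in K56R symmetric against asymmetric and 3 in K56R H3X against H3Y. The medians there were 0.025, 0.037, -0.15 and -0.033 in the comparisons with 0 calls, in that order, -0.065 in K56R symmetric, -0.13 in K37Q symmetric, 0.038 in R2K symmetric, -0.057 in R2K symmetric against asymmetric and -0.033 in K14R H3X against H3Y. In full-length libraries the same covariates gave 0 calls and a median of 0.16 in K14R symmetric, 1 and -0.10 in K36Q symmetric, 5 calls in K56R symmetric, 1 in K56R asymmetric, and medians of -0.056 in S10A symmetric and 0.060 in K36R asymmetric. The replicate block gave 4 calls in K14R H3X against H3Y (0 without it) and, with library slopes, a median of -0.21 in K56R symmetric against asymmetric; it changed no other call. In most strain pairs at least 1 of the 3 correlations of same-numbered libraries was 0.1 or lower. With 3 values for a pair, these correlations cannot decide whether same-numbered libraries belong together. The 9 libraries of K14R alone, chosen after seeing the data, gave 12 calls for H3X against H3Y and 1 for symmetric against asymmetric. DESeq2 called 1 member in K18R symmetric, and 18 in S10A, 7 in K14R and 9 in K36Q symmetric full-length. RLE size factors gave 4 in K36Q and 0 in K56R symmetric full-length, and 1 kept pseudo-wild-type library of the near-identical ones 0 in K14R, K36Q and K56R. Symmetric K56R replicates 3 and 4, which were near duplicates, gave 4 when summed. The longer motifs were found in 21 (PAC) and 19 (RRPE) members.

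Leaving out 1 library at a time, calls ranged from 21 to 30 in K14R symmetric, 21 to 28 in K14R asymmetric, 24 to 27 in K37Q asymmetric, 2 to 23 in K56R symmetric, 4 to 25 in K56R asymmetric, 0 to 5 in K37Q symmetric, 0 to 2 in K37Q symmetric against asymmetric, 0 to 1 in K18R symmetric and 0 to 3 in K18R symmetric against asymmetric. The median for K37Q H3X against H3Y ran from -0.37 to 0.033. In full-length libraries calls ran from 0 to 29 in K14R symmetric (median -1.33 to -0.017), 0 to 4 in K36Q symmetric and were 0 in all for K56R symmetric. Of 28 named members' 3′-end results, 26 lost significance with library slopes, and 33 of 294 with a library left out. Where not stated, the cause was not tested. Of the planned full-length leave-outs, those of other strains were not run. Depth limits low members in the shallowest libraries.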
